A study of Mus musculus with 2 samples.

Results

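The genes described here encode the surface receptors, bridging proteins and integrins by which phagocytes and epithelial cells take up dying cells. They were fixed by name as 10 genes, Mertk, Axl, Tyro3, Gas6, Mfge8, Itgav, Itgb5, Timd4, Stab1 and Lrp1, and taken as every non-control probe of the array files that carries one of these names. This gave 19 of the 41165 probes that were free of outlier flags. Of these, 14 probes, covering all 10 genes, were measured, among 17161 measured genes in all. A probe counted as measured when the scanner software called it well above background for 1 diet or more, on both arrays.

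The series compared total RNA of small intestine from C57BL/6 mice of 6 to 8 weeks on a food antigen-free diet (FAF), in which amino acids stand in for protein, with that of C57BL/6 mice on conventional chow (Conv). The FAF diet was kept for up to 5 generations, and the labels speak of both specific-pathogen-free (SPF) and germ-free (GF) mice without saying which gave the RNA. By the RNA codes in the labels, each diet is represented by 1 RNA sample, read on 2 arrays with the dyes exchanged: FAF in Cy5 on one and FAF in Cy3 on the other. The labels call the material an organ, and neither the segment of the intestine nor pooling of animals is given in the sources used here. Because the arrays repeat the same RNA pair, no test between diets was possible, and the spread between mice is unknown.

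Cells that die by apoptosis expose phosphatidylserine, a lipid otherwise kept on the inner face of the membrane. Some receptors bind this lipid directly, among them Timd4 and Stab1. Others reach it through a bridging protein: Gas6 and protein S link it to the receptor tyrosine kinases Tyro3, Axl and Mertk (the TAM receptors), and Mfge8 links it to integrins that contain the alpha v chain Itgav. In the gut, macrophages below the epithelium and the epithelium itself clear shed and dying cells. The title of the series speaks of T cell death brought on by food protein.

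The following probes carry the results. They are shown by their first 30 bases of 60, 5′ to 3′ and in lower case. All 19 probes lie on the strand that RefSeq (GRCm38.p6) gives for their gene. Positions come from the array files and are in build mm9.
Mertk (chr2:128627867-128627924, plus strand): agcaccaggtgaaagctgtcaagtcaggtt
Timd4 (chr11:46657173-46657232, plus strand): acttcttttcacattcaagtttctttaaag
Lrp1, probe 1 (chr10:126975573-126975632, minus strand): tggggttagttcaggggaggtggagtcctc
Lrp1, probe 2 (chr10:127024797-127024856, minus strand): agctttggctatcattacagtaaaataaca
Stab1, probe 1 (chr14:31952288-31952347, minus strand): ctcaaggtcaaatgatgagctggaatgaag
Stab1, probe 2 (chr14:31972691-31972834, minus strand): accttttcacagcaggcctttccaaacttc
Stab1 probe 2 covers 144 genomic bases with its 60 bases, so it is not 1 unbroken stretch of the genome, whereas probe 1 covers 60. The Mertk probe is listed over 58 genomic bases. The brightest probes of the other genes lie at chr7:26542953-26543012 for Axl, chr2:119643274-119643333 for Tyro3, chr8:13465444-13465503 for Gas6, chr7:86278689-86278748 for Mfge8, chr2:83646133-83646192 for Itgav and chr16:33949123-33949182 for Itgb5. Exon and UTR limits of build mm9 were not used here.

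As processed here, Mertk was at about 3 times its Conv level in the FAF intestine, and the other 9 genes lay within 1.5-fold of Conv. Timd4, at 1.49-fold, depended on the processing and was at 2.49-fold by the ratio of the scanner software, past the rule of size given next. Ratios are log2 values of FAF over Conv, given as the mean of both arrays ± how far each array lay from that mean. A gene passed the rule of size when its mean was at least 2-fold and each array gave at least 1.5-fold the same way. By this rule 1 of the 10 genes was higher in FAF and 0 were lower, beside 1.53% and 0.88% of all measured genes. Of the 10 genes, 9 had ratios above 0 on both arrays, against 38.7% of all measured genes, and the median was 0.25, where that of all measured genes was close to 0. With median centring in place of loess, 2 of the 10, Mertk and Timd4, were above 0 on both arrays, against 11.46% of all measured genes. These shares describe 1 pair of RNA samples and a list of 10 related genes, and were not tested. The list was chosen with earlier results of these data known.

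**Figure D1:**
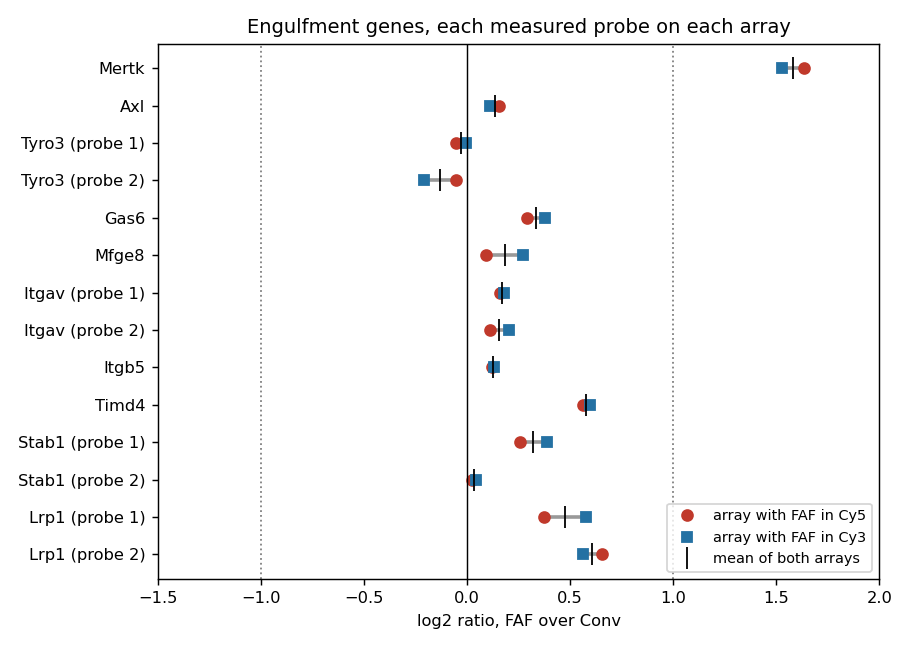
Log2 ratio of FAF over Conv (x axis) for each of the 14 measured probes (rows). Circles are the array with FAF in Cy5, squares the array with FAF in Cy3, vertical ticks the mean of both, and dotted lines mark 2-fold. Mertk is the only gene beyond a dotted line, and both Tyro3 probes lie below 0.

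Mertk, the TAM receptor best known for corpse uptake by macrophages, had normalised intensities of 3039 and 2787 in FAF, against 980 and 967 in Conv (each pair gives first the array with FAF in Cy5). Both FAF values were far above both Conv values. The ratio was 1.63 on the array with FAF in Cy5 and 1.53 on the other, with a mean of 1.58 ± 0.05, or 2.99-fold. Before any correction the spots read 5060 and 1832 in FAF, against 534 and 1516 in Conv, over local backgrounds between 16.5 and 68.0. Both raw FAF readings were thus above both raw Conv readings as well, whichever dye carried them. Of all measured genes, 99.5% had a ratio at or below that of Mertk. A single probe reports the gene. In whole tissue, more cells of a type and more RNA per cell cannot be told apart, which holds for each of the 10 genes.

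The TAM relatives of Mertk were close to even between diets. Axl, a receptor tied to dendritic and vascular cells, read 231 and 249 in FAF, against 207 and 230 in Conv, a ratio of 0.13 ± 0.02. FAF was the higher on each array, but the lower FAF value and the higher Conv value nearly met. Tyro3, the receptor most studied in brain, read 162 and 168 in FAF, against 169 and 169 in Conv, a ratio of -0.03 ± 0.02. Its other measured probe, 298 bases end to end with the first, gave -0.13 ± 0.08. Tyro3 was the only one of the 10 genes with a ratio below 0, and 44.5% of all measured genes lay at or below it.

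**Figure D2:**
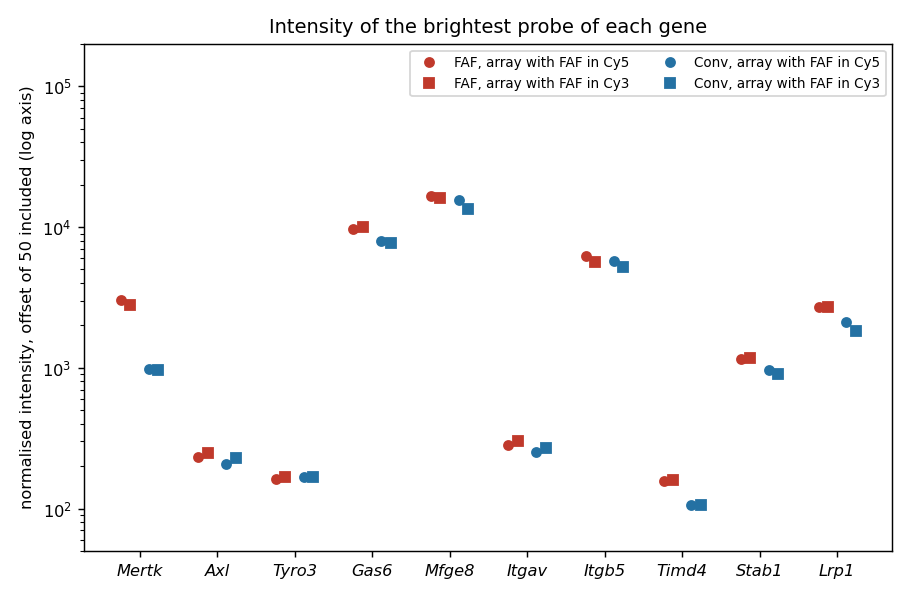
Normalised intensity, on a log axis and with the offset of 50 included, of the brightest measured probe of each gene. Red is FAF and blue is Conv, circles are the array with FAF in Cy5 and squares the array with FAF in Cy3. The red and blue points are well apart for Mertk and close together for Axl, Tyro3, Itgav and Itgb5, and heights of different genes are not comparable because probes differ.

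Of the bridging proteins among the 10 genes, Gas6 stood slightly higher in FAF. Mfge8, at 0.18, was about as near to even as the integrin chain Itgav, at 0.17. Gas6, the ligand of all TAM receptors, read 9761 and 10022 in FAF, against 7979 and 7703 in Conv. Its ratio was 0.34 ± 0.04, or 1.26-fold, short of the rule of size. Mfge8, which joins phosphatidylserine to integrins, read 16661 and 16168 in FAF, against 15614 and 13420 in Conv. That ratio was 0.18 ± 0.09, with 0.09 on the array with FAF in Cy5 and 0.27 on the other, so the arrays differed by as much as the ratio itself. The other ligand of the TAM receptors, protein S (Pros1), is not among the 10 genes and stood higher than Gas6 at 0.70 ± 0.06, with 0.68 on its other probe.

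The integrin chains that receive Mfge8 were close to even. Itgav, the alpha v chain, read 283 and 304 in FAF, against 253 and 269 in Conv, a ratio of 0.17 ± 0.01. A dimmer Itgav probe gave 0.16 ± 0.05, and its remaining 4 probes did not rise well above background for either diet on either array. Itgb5, the beta 5 chain that pairs with alpha v, read 6200 and 5667 in FAF, against 5699 and 5169 in Conv, a ratio of 0.13 ± 0.01. Here the difference between the arrays was about as large as that between the diets, and only the ratio within each array separates the diets. Itgb3, the other beta partner of alpha v in this pathway, had a ratio of -0.08 ± 0.03, and its second probe 0.06 ± 0.33.

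The receptors that bind phosphatidylserine directly differed between themselves. Timd4, a receptor of tissue-resident macrophages, read 157 and 159 in FAF, against 107 and 106 in Conv. The arrays lay close together at 0.56 and 0.59, a mean of 0.58 ± 0.02 or 1.49-fold. The spots were dim: before correction they read 218 and 93.6 in FAF, against 44.7 and 141 in Conv, over local backgrounds of 65.5 and 19.0 in FAF and 17.5 and 67.0 in Conv. An offset of 50, added to each corrected intensity here, pulls the ratio of so dim a gene towards 0. The ratio computed by the scanner software gave Timd4 1.32 ± 0.04, or 2.49-fold, and with it Timd4 passed the rule of size besides Mertk. By the software's ratio 2.84% of all measured genes passed as higher and 2.04% as lower.

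Stab1, a scavenger receptor of macrophages and sinus endothelium, read 1155 and 1178 in FAF, against 967 and 900 in Conv, on probe 1. Its ratio there was 0.32 ± 0.07. Probe 2, which lies toward the other end of the gene and is dim, read 94.5 and 96.1 in FAF, against 92.9 and 93.2 in Conv, a ratio of 0.03 ± 0.01. The probes of Stab1 thus differed by 0.29, but by 0.09 on the software's ratio, which for probe 2 was 0.22, with 0.01 and 0.44 on the arrays.

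Lrp1, a large endocytic receptor that binds calreticulin on dying cells, had the next highest ratio after Mertk and Timd4. Probe 1 read 2718 and 2708 in FAF, against 2100 and 1815 in Conv, a ratio of 0.47 ± 0.10 or 1.39-fold. Probe 2 read 498 and 479 in FAF, against 317 and 325 in Conv, a ratio of 0.61 ± 0.05 or 1.52-fold. The probes lie 49284 bases end to end. Probe 2 belongs in the array files to a separate Ensembl transcript and passed 1.5-fold, while probe 1, the brighter, stands for the gene and did not.

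The error of a ratio between arrays was small for the whole list. Over the probe that stands for each gene, the arrays lay between 0.01 and 0.10 from their mean. Over all measured probes the median of that distance was 0.05 and its 95th percentile 0.17. The ratios of Mertk, Timd4, Lrp1, Gas6 and Stab1 probe 1 were larger than 0.17, those of Axl, Itgb5 and both Tyro3 probes were smaller, and those of Mfge8 and Itgav were about as large. None of these values contains the spread between mice.

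**Figure D3:**
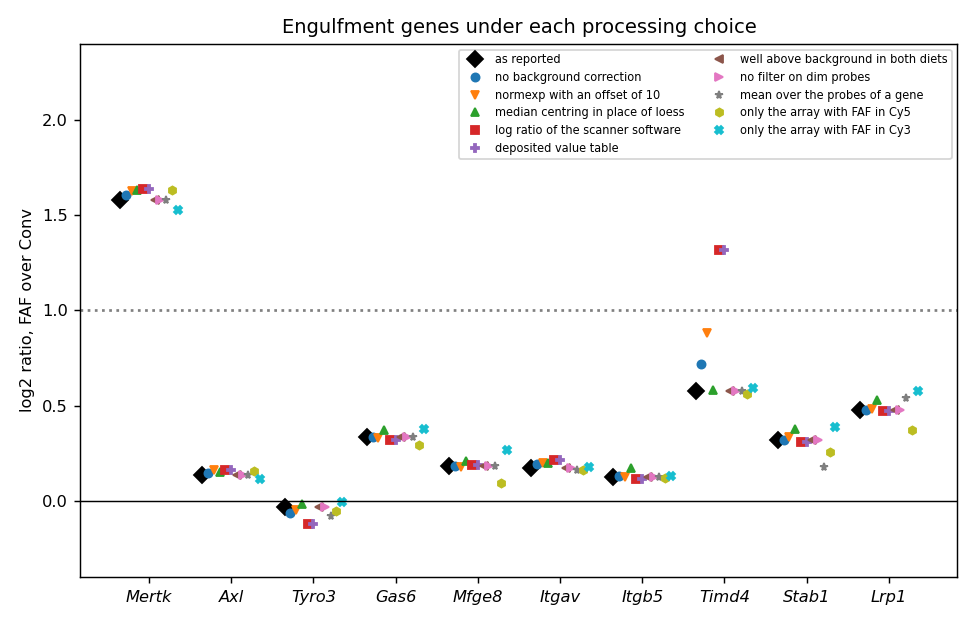
Log2 ratio of FAF over Conv (y axis) of each gene as reported (diamond) and under each of 10 other processing choices (other symbols). Points are means of both arrays, except where a single array was used. Mertk lies between 1.53 and 1.64 under all of them, whereas Timd4 spans 0.56 to 1.32, with its highest values from the scanner software and the deposited value table. Behind the mean with median centring, Mertk had 2.36 on the array with FAF in Cy5 and 0.91 on the other.

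The start regions of the 10 genes were read from RefSeq as the 250 bases before the start of the gene (GRCm38.p6). Searched on both strands, the GC box GGGCGG was found in 7 of the 10 regions, against 32.7% of 32851 regions of the same length. These 32851 are all RefSeq regions of that length and were not limited to measured genes. The half-site AGGTCA of nuclear receptors was found in 1 of 10, that of Timd4, against 14.0% of all. TATAAA, the E-box CACGTG and the AP-1 motif TGACTCA were found in 0 of the 10 regions, against 12.4%, 6.02% and 4.46% of all. The region of Mertk, with 63.6% GC, and that of Timd4, with 50%, are shown because these genes had the highest ratios, and the median of all regions was 52.4%. GC was above that median in 9 of the 10 regions, from 54.8% to 73.2%, and its part in the count of GC boxes was not tested. Capitals mark GGGCGG, or its reverse complement CCGCCC, in Mertk and AGGTCA in Timd4.
Mertk (chr2:128698665-128698914, GRCm38.p6, plus strand): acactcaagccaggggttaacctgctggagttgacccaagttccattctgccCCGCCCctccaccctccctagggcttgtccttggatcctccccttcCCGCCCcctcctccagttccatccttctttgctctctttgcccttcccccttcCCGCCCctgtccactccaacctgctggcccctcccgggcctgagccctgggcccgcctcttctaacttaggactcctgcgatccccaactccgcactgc
Timd4 (chr11:46810549-46810798, GRCm38.p6, plus strand): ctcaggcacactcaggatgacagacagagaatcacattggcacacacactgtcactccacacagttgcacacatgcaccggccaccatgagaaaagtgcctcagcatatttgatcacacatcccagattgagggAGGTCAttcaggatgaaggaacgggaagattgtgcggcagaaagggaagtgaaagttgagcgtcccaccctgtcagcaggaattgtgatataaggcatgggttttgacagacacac
The Mertk region holds 3 copies of the GC box and the Timd4 region 0. A match of letters is a description and shows no binding.

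Around these genes, the wider pathway of engulfment was read from 10 lists by role, which held 137 further genes, 123 of them measured. Of the 123, 7 passed the rule of size as higher in FAF and 3 as lower, or 5.69% and 2.44%. The shares over all measured genes were 1.53% and 0.88%. The list of nuclear receptors and their target genes held 3 of the 7 and 2 of the 3. Their median ratio was 0.11, and 83 of them, or 67.5%, were above 0, against 49.8% of all measured genes. The same 49.8% is the share to set beside the counts above 0 in the lists that follow. The lists hold genes with several roles and were written with earlier results of these data known. The shares therefore describe the chosen genes, cannot be told apart from that choice, and were not tested. With median centring in place of loess, 3 passed as higher, which were Cd36, Lipa and Plscr1, and 1 as lower, Scd2. Over all measured genes that setting gave 1.07% higher and 0.48% lower.

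In the list of TAM receptors and ligands, Mertk was the 1 of 9 measured genes that passed, and the median was 0.13. In the list of direct phosphatidylserine receptors, 1 of 8 passed, with a median of 0.19. In that of integrin bridges and scavenger receptors, 1 of 15 passed as higher and 1 as lower, with a median of 0.17. Cd36, a fatty acid transporter of enterocytes that also serves as a corpse receptor on macrophages, stood at 1.78 ± 0.11, and its other probe at 1.73. Cd300lf, a lipid receptor of myeloid cells, was at 1.01 ± 0.11 and hardly past the rule, and it missed the rule when the array with FAF in Cy5 was left out. Cd14, the endotoxin co-receptor that can also bind dying cells, was lower at -1.08 ± 0.06. Calr, the ligand of Lrp1 on dying cells, had -0.30 ± 0.10 and -0.41 on its other probe, the opposite direction to Lrp1. Havcr1, a relative of Timd4, had 2 probes and was measured by neither. In the list of Lrp1, calreticulin and the opsonin C1q, 0 of 10 measured genes passed in either direction, the median was 0.19, and the largest ratio after Lrp1 was that of Pear1 at 0.31.

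The signalling steps inside the engulfing cell were nearly even between diets. Of 20 genes from the receptor adaptors to the Rac GTPases, all measured, 0 passed in either direction. Their median was 0.09 and their ratios ran from -0.24 to 0.32, with Elmo2, part of the exchange factor for Rac, at 0.32 ± 0.05 and Vav2, another exchange factor, at 0.31 ± 0.01. Of 13 measured genes for find-me signals and brakes on uptake, 0 passed, and the median was 0.10. P2ry2, a receptor for nucleotides released by dying cells, had the highest at 0.66 ± 0.15, and the iron-binding Ltf, which holds granulocytes back, the lowest at -0.61 ± 0.02.

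Exposure of phosphatidylserine and digestion of the corpse had 1 gene each past the rule, among 10 and 20 measured genes. Plscr1, called a scramblase and also induced by interferon, stood at 1.35 ± 0.03, with 1.32 and 1.41 on its other probes. Lipa, the lysosomal acid lipase, stood at 1.14 ± 0.07, but its other probe gave 0.31, and Lipa did not pass when probes were averaged. The exposure list had a median of 0.10. The digestion list had 17 of 20 measured genes above 0, and a median of 0.23.

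Nuclear receptors for sterols and fatty acids, and genes they control, held 5 of the 10 further genes that passed. Abca1, which exports cholesterol after a corpse is digested, stood at 1.07 ± 0.08, Ppara at 1.16 ± 0.10 and Srebf1 at 1.23 ± 0.01. Lower were the fatty acid desaturases Scd1, at -1.39 ± 0.21, and Scd2, at -1.37 ± 0.05. Nr1h3, the LXR alpha receptor that in mouse macrophages raises Mertk and Abca1, had 0.41 ± 0.05 and did not pass. The genes of this list did not all lie on one side, with 10 of 17 above 0 and a median of 0.35. Abca1 too missed the rule without the array with FAF in Cy5.

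TAM receptors dampen cytokine signals through Socs proteins, and 0 of the 11 measured genes of that feedback list passed, with a median of 0.07. Socs1, an inhibitor of interferon signalling, had -0.90 ± 0.01, short of 2-fold. By the software's ratio Socs1 and Ltf passed as lower. Il10, the cytokine that the series' title names, was not measured.

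**Figure D4:**
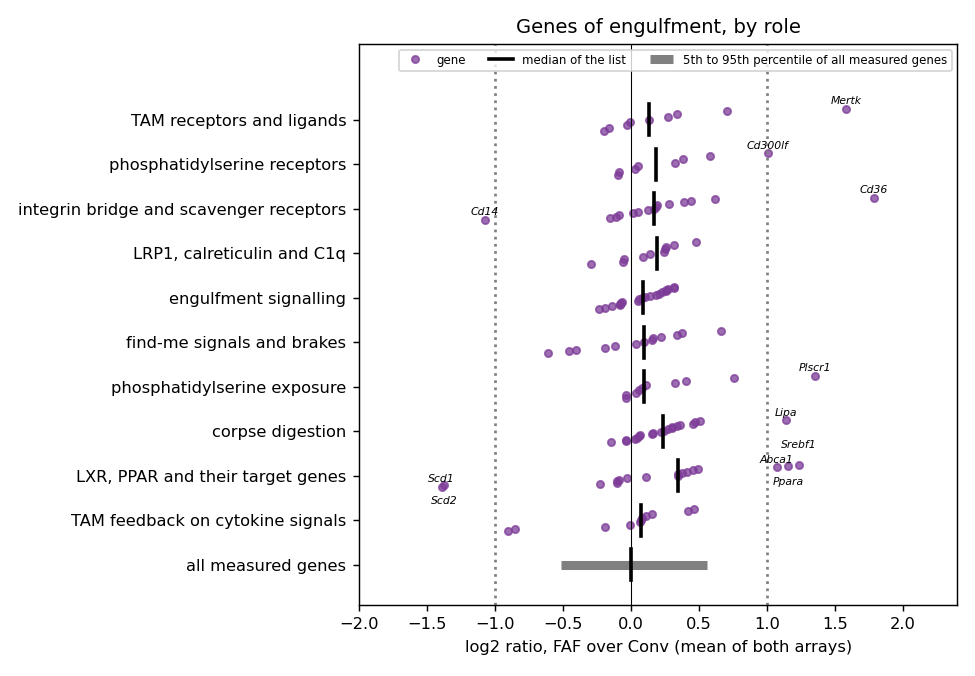
Log2 ratio of FAF over Conv (x axis) of each measured gene in the 10 lists (rows), with the list's median as a black line and names for genes that passed the rule of size. The grey bar spans the 5th to the 95th percentile of all measured genes, -0.51 to 0.56. Mertk, Cd36 and Plscr1 are the furthest to the right, and Scd1 and Scd2 the furthest to the left.

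Markers of the cells that could carry these transcripts were set beside the 10 genes. All 12 enterocyte markers were measured, 10 of them were above 0 and 5 passed as higher, with a median of 0.77. Apoa4, at 2.71 ± 0.03, and Fabp1, at 2.02 ± 0.14, were the highest. Anpep, at -0.15 ± 0.17, and Cdx1, at -0.16 ± 0.02, had means below 0. Alpi passed as higher, but its other probe gave 0.93 and missed the rule. These ratios compare the diets and are no check of the labelled tissue. Of the macrophage markers, 14 of 16 were measured and 11 of these were above 0, with a median of 0.23. None passed as higher, and Cd14 was the 1 that passed as lower. Csf1r, the receptor for the macrophage growth factor CSF1, was at 0.61 ± 0.04, well under the ratio of Mertk. C5ar1 and Vsig4 were not measured. The summed intensity of macrophage markers was 60393 and 58349 in FAF, against 63784 and 65288 in Conv. Probes differ in brightness, so such a sum follows its brightest probes, here Lyz2 with 39159 and 38316 in FAF, against 46092 and 48445 in Conv, and is no measure of cell content. Their part in the ratios of the 10 genes was not tested.

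Endothelial markers, relevant to Stab1 and Axl, were above 0 in 10 of 10 genes, from 0.09 to 0.50 with a median of 0.34, and 0 passed the rule. Their summed intensity, with the same limit, was 7145 and 7049 in FAF, against 5632 and 5716 in Conv. Smooth muscle markers were below 0 in 10 of 10 genes, with a median of -0.51 and 0 past the rule, from Synm at -0.76 ± 0.06 and Des at -0.74 ± 0.16 upward. Fibroblast markers had 2 of 9 lower, Dcn at -1.04 ± 0.06 and Col1a1 at -1.02 ± 0.01, and 1 higher, Fbln1 at 1.04 ± 0.01, with a median of -0.75 and 3 of 9 above 0. Further measured probes missed the rule for Col1a1, at -0.69, and for Fbln1, at 0.95. Dendritic cell markers had a median of 0.11, 5 of 9 above 0 and 0 of 9 past the rule, with Itgax at 0.47 ± 0.03 and Batf3 at 0.30 ± 0.04. Among T cell markers 2 of 9 were lower, which were Cd8b1, at -1.33 ± 0.08, and Cd5, at -1.05 ± 0.01, and the median was -0.43. Fat tissue markers had 5 of 8 lower and 1 higher, Cidec at 1.06 ± 0.11, with a median of -1.20. Cfd, at -2.72 ± 0.02, and Adipoq, at -2.08 ± 0.00, were the lowest. Car3 and Lpl passed as lower, but each had another measured probe that missed the rule, at -0.55 and -0.72. Secretory cell markers had 1 of 8 lower, Mmp7 at -1.02 ± 0.12, and next Itln1 at -0.68 ± 0.10, with a median of -0.32. The part of these cell types in the ratios of the 10 genes was likewise not tested.

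**Figure D5:**
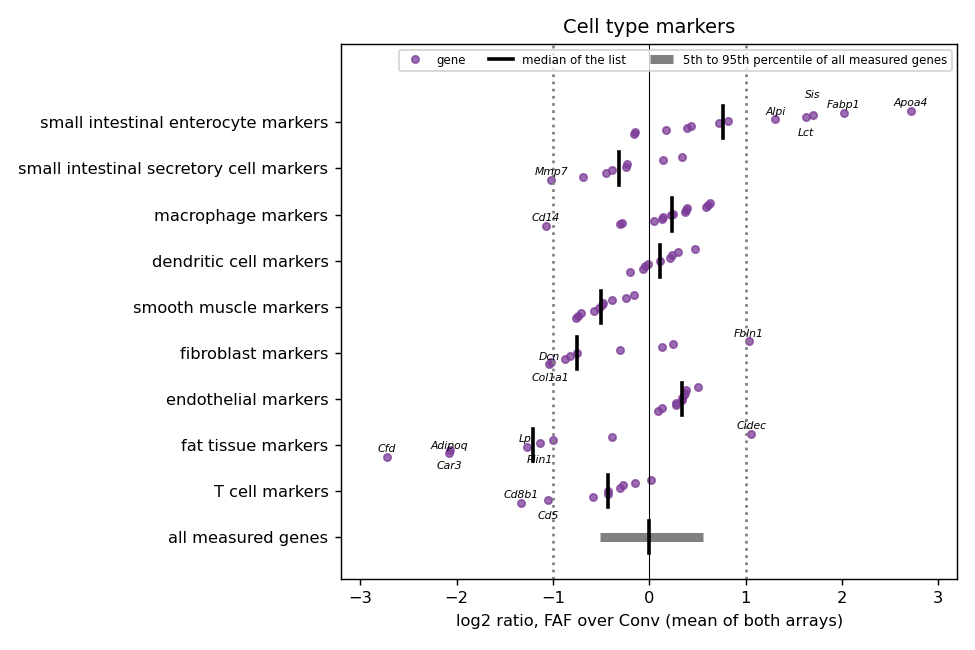
Log2 ratio of FAF over Conv (x axis) of each measured cell type marker (rows by cell type), drawn as in the plot of pathway lists. Enterocyte markers reach 2.71, macrophage and endothelial markers sit mostly above 0 and short of 2-fold, and fat tissue markers reach -2.72.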

How the data were processed

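Both arrays are Agilent whole mouse genome 4x44K designs, labelled with the Quick Amp kit after Trizol extraction, per the labels' protocols. Per the file headers, Agilent Feature Extraction 11.5.1.1 made the deposited scanner files, which give the intensity of each spot in both dyes (linear), the log10 ratio of Cy5 over Cy3, and quality flags. The deposited value table holds the same log10 ratio and differs from it by at most 5e-08, with no turning for the dye swap.

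Mean spot intensities went through normexp (offset 50) and were normalised by loess within each array, using limma 3.58.1 in R 4.3.3, with control spots at weight 0. Log2 ratios were turned to FAF over Conv by the labelled dyes and averaged, after averaging spots of 1 probe. Intensities per diet come from the same values after Aquantile scaling between arrays. No spot was saturated. The brightest measured probe stands for a gene. RefSeq symbols replaced array names for 27668 of 41174 probes.

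With 1 RNA sample per diet, no p-value was computed. The array count limits the precision, and ± values cover dye and hybridisation error alone. The members, lists, motifs and the rule of size were chosen with earlier results of these data known. All 10 genes are named, and of each list the genes past the rule, or else the 2 of largest absolute ratio, with Pros1, Abca1, Nr1h3, Havcr1, Itgb3 and Calr added. Some genes that this rule names are not reported here. Any other gene was named with its value known. Simulated data were used to test the steps.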

Additional observations from a re-analysis of the deposited data

How the results depend on the processing

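Mertk passed the rule of size under all 10 alternatives on its value, with ratios from 1.53 to 1.64. Not all of these could move it. Other filters on dim probes and averaging over probes left its single probe at 1.58. The deposited value table repeats the software's ratio, and each single array is a part of the reported mean. Timd4 stood at 0.72 without background correction, 0.88 with an offset of 10 and 1.32 by the software or the deposited value table. The software and the table therefore gave 2 of the 10 genes as higher in FAF, where the reported setting gave 1. A limit of 4-fold gave 0, and so did ratios not turned for the dye swap. The median over the 10 genes ran from 0.18 to 0.32, and 0 genes passed as lower under any alternative. The mean ratio of the 9 genes above 0 did not fall below it under the 10 alternatives, and Tyro3 stayed below 0 throughout, from -0.12 to -0.01. With median centring the number of genes above 0 on both arrays was 2, where the other alternatives gave 9, since the array with FAF in Cy3 put 7 of those 9 below 0. The correlation of the arrays across all measured genes, which are not independent replicates, was 0.16, against 0.90 as reported.

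Among the 123 further genes, 7 were higher and 3 lower in the reported setting. Median centring gave 3 and 1. A limit of 1.5-fold gave 11 and 6. The software and the deposited table gave 7 and 5. A limit of 4-fold, and ratios not turned, gave 0 and 0. Taken singly, the array with FAF in Cy5 gave 7 and 3, and that with FAF in Cy3 gave 5 and 3. Over all measured genes the reported setting gave 263 higher and 151 lower, median centring 183 and 82, the software (and the deposited table too) 487 and 350, a limit of 1.5-fold 775 and 616, a limit of 4-fold 31 and 18, and ratios not turned 0 and 0. No paired analysis was possible because each diet gave 1 RNA sample. Signal over background limits Timd4, Tyro3, Axl and the dimmer probes of Itgav and Stab1, whose ratios the offset draws towards 0.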

Other observations

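Of the 5 probes of the 10 genes that were not measured, 2 had ratios that differed widely between the scanner software and the values used here. An Itgav probe at chr2:83643711-83643770 (mm9) had 0.00 after normexp and loess, while the scanner software gave 0.95 and 0.51 on the arrays. The third Tyro3 probe, at chr2:119627379-119627438, had -0.02, and the software gave -0.36 on the array with FAF in Cy5 and 0.77 on the other. That probe was well above background in 1 of its 4 readings, a reading of Conv. The other 3, all of Itgav, lay between -0.06 and 0.03 here and between -0.08 and 0 by the software. These ratios of probes near background are not measurements of the genes.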
